A study of Homo sapiens with 24 samples.

Results

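CD33 and 8 other genes of the Siglec family were followed across CD33 genotype and PTPN6 knockdown in human macrophages. The 9 genes, CD33, CD22, SIGLEC1, SIGLEC7, SIGLEC9, SIGLEC10, SIGLEC11, SIGLEC15 and SIGLEC16, were taken by symbol from the 60617 rows of the gene count table, and no measured value entered their choice. All 9 were found and 8 passed the filter on low counts; SIGLEC10 did not. The cells were THP1, a human monocytic leukaemia line, grown in medium with chicken serum and N2 supplement and turned into adherent macrophages with 10 ng/ml of the phorbol ester PMA for 48 hours, followed by 48 hours without it. Before that, every group met lentivirus made in HEK-293FT cells for 24 hours, rested for 48 hours and was selected with 1 µg/ml puromycin.

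The 4 groups cross genotype with vector. CD33KO_shPTPN6 is the CD33 knockout with a pLKO.1 hairpin against PTPN6 (5 libraries), CD33KO_shCTRL is the knockout with empty pLKO.1 (6), WT_shPTPN6 is wild type with the hairpin (6), and WT_shCTRL is wild type with the empty vector (6). The empty vector carries no hairpin, so a hairpin of any kind is present only in the knockdown groups. The labels do not say how CD33 was edited or whether the knockout is 1 clone, so genotype and clone cannot be told apart. Total counts were 2024032 to 2581042 in CD33KO_shPTPN6, 2048161 to 3749258 in CD33KO_shCTRL, 3318001 to 6269304 in WT_shPTPN6 and 4170191 to 5700712 in WT_shCTRL. CPM is the count relative to library size, scaled by TMM, and 10 of the 11 knockout libraries had fewer counts than any wild-type library. Counts come from 100 ng of total RNA read at the 3' ends of transcripts. In bulk RNA, fewer cells expressing a gene and less RNA per cell cannot be told apart.

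Siglecs are receptors that bind sialic acid, the sugar that caps many glycans on cell surfaces. Most inhibitory members, CD33 among them, carry ITIM motifs in the cytoplasm that are phosphorylated by Src family kinases and then recruit phosphatases such as SHP-1, the product of PTPN6. A smaller group lacks those motifs and pairs with adaptors such as DAP12, the product of TYROBP, which signals through SYK. CD33 marks the myeloid lineage, and variants of the gene are associated with risk of Alzheimer's disease. The comparisons ask how the receptor family stands when its founding myeloid member or its downstream phosphatase is reduced.

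The hairpin's target from the labels and the promoter sequences that bear on the results below are shown here for reference. The target matched PTPN6 and no other gene among GENCODE 29 transcripts, at chr12:6959963-6959983 on the plus strand of GRCh38, inside 1 exon and in the coding part of all 3 coding transcripts that hold it. No Siglec transcript holds it.
PTPN6 hairpin target: cgacatgctcatggagaacat

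The promoter of CD33 is shown because CD33 transcripts remained in the knockout line and responded to the knockdown in wild type. It covers the 250 bases before the RefSeq start, chr19:51224830-51225079, plus strand, GRCh38.p14. Capitals mark TTCCTC, the reverse complement of GAGGAA, a core recognised by PU.1, the myeloid factor encoded by SPI1. GAGGAA on either strand occurred 2 times in this window. At least 1 match was in 23.57% of 35116 such promoter windows in the RefSeq table. It was also in windows of SIGLEC7, SIGLEC9 and SIGLEC15, and not in those of CD22, SIGLEC10, SIGLEC11 and SIGLEC16. Genes higher with the hairpin in wild type were found with it (CD33, SIGLEC7) and without it (SIGLEC11, SIGLEC16). SIGLEC9, which holds it, was lower. A match is a description of the letters only.
CD33 promoter: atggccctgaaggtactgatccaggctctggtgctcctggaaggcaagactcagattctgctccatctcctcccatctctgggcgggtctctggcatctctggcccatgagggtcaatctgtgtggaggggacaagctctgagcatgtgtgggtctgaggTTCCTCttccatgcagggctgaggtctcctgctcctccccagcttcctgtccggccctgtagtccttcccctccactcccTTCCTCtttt

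The promoters of SIGLEC11 and SIGLEC16 are shown because the pair moved together in these libraries. They share a stretch of 161 bases in which 159 are identical. In SIGLEC11 it is chr19:49961173-49961333 on the minus strand and ends at the RefSeq start; in SIGLEC16 it is chr19:49969414-49969574 on the plus strand and ends 89 bases before the start. Capitals mark the 2 positions that differ.
SIGLEC11 promoter stretch: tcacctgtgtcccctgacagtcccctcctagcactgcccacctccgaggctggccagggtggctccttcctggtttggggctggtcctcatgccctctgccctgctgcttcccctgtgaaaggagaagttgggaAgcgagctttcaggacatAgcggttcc
SIGLEC16 promoter stretch: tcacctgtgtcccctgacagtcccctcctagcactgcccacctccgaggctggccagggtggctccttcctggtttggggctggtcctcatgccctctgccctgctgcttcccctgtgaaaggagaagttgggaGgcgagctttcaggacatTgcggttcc
The core of the interferon-stimulated response element (GAAA, any 2 bases, GAAA), which 3.021% of windows hold on either strand, was in no window of the 8 Siglec genes that the table holds, which are all but SIGLEC1.

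PTPN6, the target of the hairpin, was lower with it in both lines. It stood at 4.94, 7.31, 7.63, 11.8 and 5.32 CPM in CD33KO_shPTPN6 libraries (median 7.31), at 32.6 to 44.1 (median 37.5) in CD33KO_shCTRL, at 8.73 to 12.8 (median 10.7) in WT_shPTPN6 and at 35.8 to 52.4 (median 45.3) in WT_shCTRL. No library with the hairpin overlapped one without it. The log2 fold change was -2.37 ± 0.17 (SE) within the knockout and -2.08 ± 0.11 within wild type, with adjusted p of 2.07e-24 and 2.07e-33 in the edgeR quasi-likelihood test with Benjamini-Hochberg adjustment over all 13098 genes, called the edgeR adjusted p from here on.

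CD33, the inhibitory receptor that the line was made to lack, was lower in every knockout library but not at 0. Its levels were 23.7, 23.8, 15.7, 25.3 and 29.03 CPM in CD33KO_shPTPN6, 16.2 to 22.5 (median 20.9) in CD33KO_shCTRL, 81.3 to 94.9 (median 88.1) in WT_shPTPN6 and 39.7 to 48.5 (median 46.3) in WT_shCTRL. Knockout libraries all lay below all wild-type ones, and the wild-type groups did not overlap each other. CD33 was lower in CD33KO_shCTRL than in WT_shCTRL (log2 fold change -1.17 ± 0.10, edgeR adjusted p = 3.31e-19). The knockout with hairpin was lower than wild type with hairpin by a wider margin (-1.91 ± 0.10, edgeR adjusted p = 6.73e-34). Reads from the 3' end outside an edit do not show whether the protein is made, and the edited position is not given in the labels.

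In wild type, CD33 was higher with the hairpin than with the empty vector, at 88.8 ± 5.33 against 45.5 ± 3.24 CPM (SD, n = 6 each). This is a 1.96-fold difference (log2 0.97 ± 0.07, edgeR adjusted p = 4.95e-23). In the knockout line the hairpin and empty-vector libraries overlapped, at 23.5 ± 4.86 (SD, n = 5) and 20.2 ± 2.45 CPM (SD, n = 6). There the log2 difference of 0.22 ± 0.13 did not pass (edgeR adjusted p = 0.185), but it did without CD33KO_shPTPN6 replicate 4, at 0.34 with an edgeR adjusted p of 0.0381. The knockdown effect differed between the lines, with an interaction (effect in knockout minus effect in wild type) of -0.75 ± 0.15 on the log2 scale and an edgeR adjusted p of 3.32e-05. From low to high, CD33 ran from CD33KO_shCTRL through CD33KO_shPTPN6 and WT_shCTRL to WT_shPTPN6, and only the lowest pair did not differ beyond its spread. Two-sided exact permutation tests of the 6 pairs of groups gave p = 0.229 for that pair and adjusted p of 0.00433 or 0.00519 for the other 5, the smallest these group sizes allow before adjustment being 0.00216 or 0.00433.

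**Figure D1:**
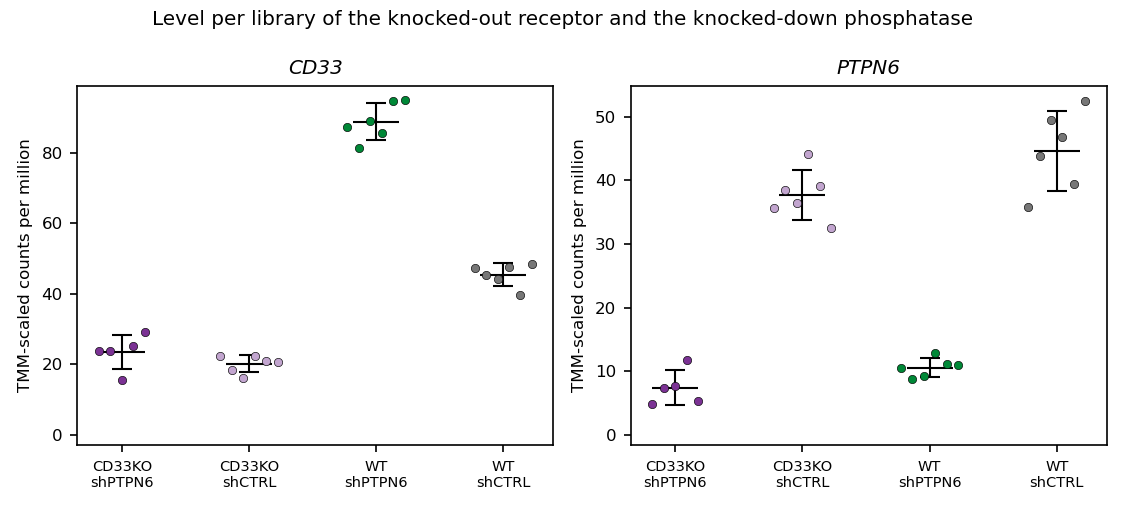
CD33 and PTPN6 levels per library, in TMM-scaled CPM, in the 4 groups; points are libraries and bars the mean ± SD. CD33 lies at 15.7 to 29.03 in the knockout groups and at 39.7 to 94.9 in wild type, and PTPN6 lies at 4.94 to 12.8 in libraries with the hairpin.

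The listed Siglec genes that passed the filter were lower in the knockout line than in wild type with either vector. With the empty vector, 8 of the 8 tested genes were lower in CD33KO_shCTRL than in WT_shCTRL; over all 13098 genes tested, 56.7% were called and 28.4% were called lower. Their median log2 fold change was -2.47, against -0.005 over all genes, and 7 of the 8 had groups that do not overlap, against 34.1% of all genes. With the hairpin, 8 of 8 were lower in CD33KO_shPTPN6 than in WT_shPTPN6, where 56.5% of all genes were called and 27.5% were called lower, and the median was -1.90 against 0.007. In that comparison all 8 had groups that do not overlap, as had 37.2% of all genes. CD33, which the line was made to lack, is among the 8 in both comparisons. Its lower level there is no evidence on the other genes. Each knockout comparison has its own libraries on both sides. The filter on low counts can keep a gene on 1 group alone, so the set tested depends on the levels compared. SIGLEC15, which it kept, had summed read counts of 20 in CD33KO_shCTRL and 923 in WT_shCTRL. SIGLEC10, which it removed, gave log2 0.91 ± 0.65 with the empty vector and -1.97 ± 0.55 with the hairpin in a fit without the filter. Outside the 9 genes, SIGLEC14 was lower with either vector and SIGLEC17P was not.

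**Figure D2:**
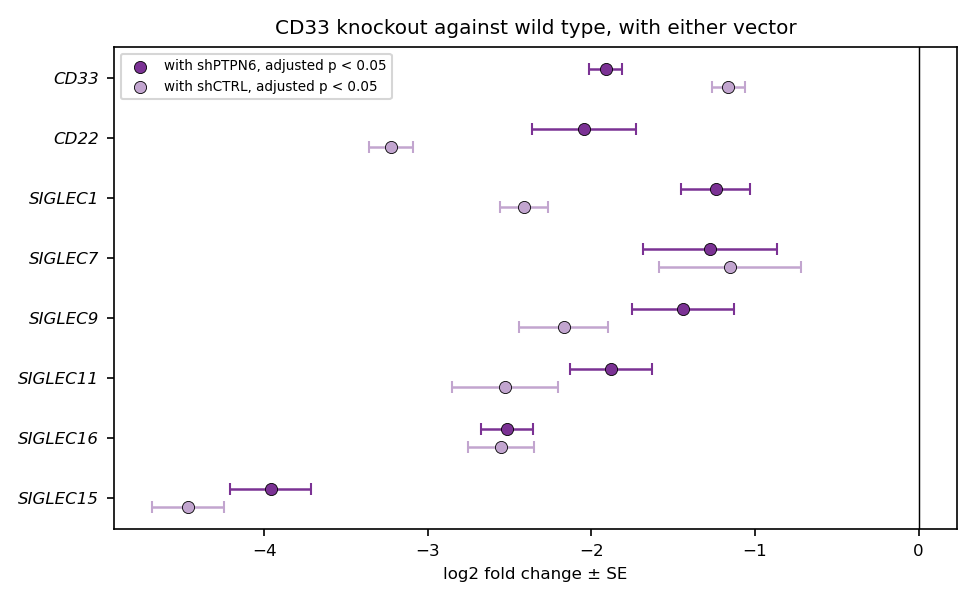
Log2 fold change ± SE of the knockout over wild type for the 8 tested Siglec genes, with the hairpin (CD33KO_shPTPN6 over WT_shPTPN6) and with the empty vector (CD33KO_shCTRL over WT_shCTRL). All 16 points lie below 0, from -4.46 for SIGLEC15 with the empty vector to -1.15 for SIGLEC7 with the empty vector.

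The hairpin moved the family in both directions. In wild type 4 genes were higher and 3 lower in WT_shPTPN6 than in WT_shCTRL, where 60.6% of all genes were called, 30.2% higher and 30.4% lower; CD33, SIGLEC7, SIGLEC11 and SIGLEC16 were higher, and CD22, SIGLEC1 and SIGLEC9 were lower. For 5 of the 8 genes, and for 37.4% of all genes, these groups do not overlap. In the knockout, SIGLEC11 and SIGLEC16 were higher and CD22 was lower in CD33KO_shPTPN6 than in CD33KO_shCTRL, where 42.1% of all genes were called, and 2 of 8 genes had groups that do not overlap, against 24.2% of all genes. The difference between these 2 effects passed for CD33, CD22 and SIGLEC1, that is 3 of 8, against 28.4% of all genes. With both changes at once, 7 genes were lower and none higher in CD33KO_shPTPN6 than in WT_shCTRL, where 63.8% of all genes were called and 31.7% were called lower, and SIGLEC7 was the gene that did not pass. Groups did not overlap for 6 of 8, against 45.7% of all genes. Set directly against each other, CD33KO_shCTRL was lower than WT_shPTPN6 in 7 genes and higher in none, with 64.6% of all genes called, 33.1% higher and 31.4% lower, and CD22 did not pass. Groups did not overlap for 6 of 8, against 41.9% of all genes. The comparisons with WT_shCTRL share its 6 libraries, so they are given side by side only. The limits given above for CD33 and the filter hold here too where knockout is set against wild type.

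**Figure D3:**
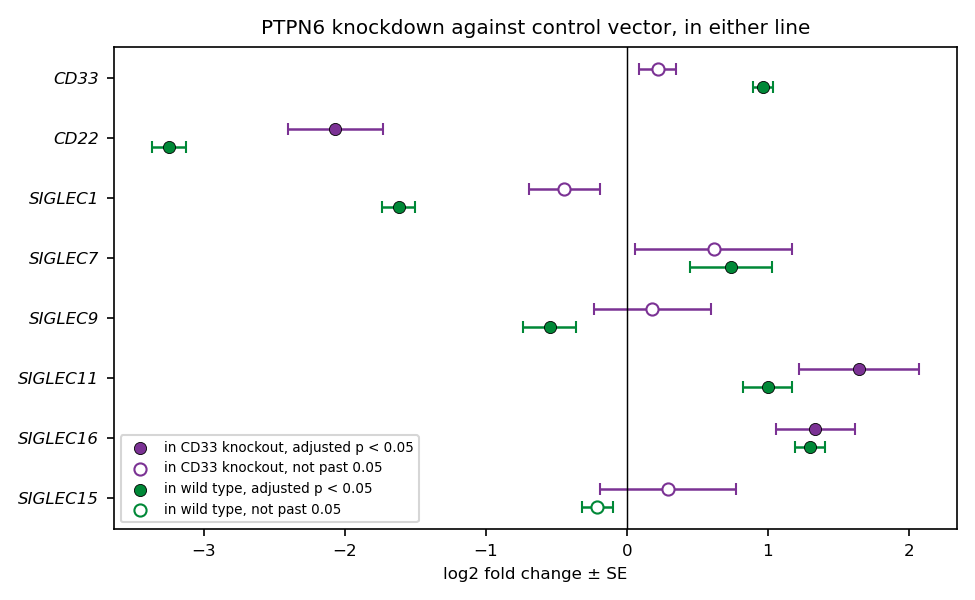
Log2 fold change ± SE of the PTPN6 hairpin over the empty vector for the 8 tested Siglec genes, in the CD33 knockout and in wild type; open circles did not pass an edgeR adjusted p of 0.05. SIGLEC16 lies at 1.34 in the knockout and 1.30 in wild type, while SIGLEC1 lies at -0.44 and -1.62.

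Summed over the 9 genes, Siglec reads were 41.7 to 56.4 CPM in CD33KO_shPTPN6, 38.2 to 47.1 in CD33KO_shCTRL, 193.9 to 211.7 in WT_shPTPN6 and 200.9 to 225.1 in WT_shCTRL. The sum was lower in every knockout library, while the wild-type groups overlapped despite the changes of single genes. CD33 made up 37.6% to 54.2% of that sum in CD33KO_shPTPN6, 40.8% to 51.0% in CD33KO_shCTRL, 40.5% to 46.0% in WT_shPTPN6 and 19.7% to 23.2% in WT_shCTRL.

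CD22, an inhibitory Siglec best known from B cells, was lower with either change. It stood at 1.48, 1.83, 2.24, 1.03 and 0.818 CPM in CD33KO_shPTPN6, at 4.25 to 9.44 (median 6.26) in CD33KO_shCTRL, at 4.10 to 8.22 (median 6.31) in WT_shPTPN6 and at 56.8 to 65.5 (median 58.2) in WT_shCTRL. The middle groups overlapped, while WT_shCTRL lay above and CD33KO_shPTPN6 below all other libraries. Against WT_shCTRL, its log2 fold change was -3.22 ± 0.14 in CD33KO_shCTRL (edgeR adjusted p = 9.79e-42) and -3.25 ± 0.12 in WT_shPTPN6 (edgeR adjusted p = 3.5e-47). The hairpin lowered it further within the knockout (-2.07 ± 0.34, edgeR adjusted p = 1.67e-07). That difference rests on summed read counts of 16 in CD33KO_shPTPN6 and 93 in CD33KO_shCTRL. CD33KO_shCTRL and WT_shPTPN6 were not told apart (log2 0.02 ± 0.20, edgeR adjusted p = 0.926).

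The CD22 interaction of 1.18 ± 0.46 passed narrowly (edgeR adjusted p = 0.041). It did not pass without a filter on low counts (adjusted p = 0.114), nor without any of 8 libraries in turn: WT_shCTRL replicate 6, WT_shPTPN6 replicates 3 and 4, CD33KO_shCTRL replicates 2 and 5, and CD33KO_shPTPN6 replicates 1, 3 and 4 (edgeR adjusted p of 0.0502 to 0.177, log2 0.98 to 1.18). The 10 B cell markers summed to 8.89 to 12.6 CPM in CD33KO_shPTPN6, 9.84 to 21.1 in CD33KO_shCTRL, 17.7 to 23.1 in WT_shPTPN6 and 18.8 to 22.4 in WT_shCTRL. Of the 4 tested, PAX5 and BANK1 were lower in CD33KO_shCTRL than in WT_shCTRL, as were 28.4% of all genes. MS4A1, the gene of CD20, had summed read counts of 2 in CD33KO_shPTPN6, 7 in CD33KO_shCTRL, 4 in WT_shPTPN6 and 5 in WT_shCTRL. The part of the B cell markers in the CD22 result was not tested.

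SIGLEC1, or sialoadhesin, is a long macrophage receptor that lacks an ITIM and is known as an interferon-induced gene. It stood at 4.44, 1.83, 6.28, 6.70 and 7.77 CPM in CD33KO_shPTPN6, at 4.12 to 10.1 (median 7.58) in CD33KO_shCTRL, at 9.22 to 17.5 (median 12.2) in WT_shPTPN6 and at 36.7 to 42.9 (median 39.4) in WT_shCTRL. WT_shCTRL lay above every other library, and the knockout groups overlapped. SIGLEC1 was lower in CD33KO_shCTRL than in WT_shCTRL (log2 fold change -2.41 ± 0.15, edgeR adjusted p = 8.69e-29) and lower in WT_shPTPN6 than in WT_shCTRL (-1.62 ± 0.12, edgeR adjusted p = 6.01e-24). Within the knockout, the hairpin difference of -0.44 ± 0.25 did not pass (edgeR adjusted p = 0.152). The 2 effects differed, with an interaction of 1.17 ± 0.29 (edgeR adjusted p = 0.000789).

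Other interferon response genes moved beside SIGLEC1. A list of 28 such genes leaves SIGLEC1 out. Of these, 0 were higher and 26 lower in CD33KO_shCTRL than in WT_shCTRL, where 28.4% of all genes were lower. All 28 were lower in WT_shPTPN6 than in WT_shCTRL, against 30.4% of all genes. The interaction was higher for 27 of 28, against 14.5% of all genes. Their summed level was 1544 to 2064 CPM in CD33KO_shPTPN6, 2635 to 3111 in CD33KO_shCTRL, 1024 to 1365 in WT_shPTPN6 and 5014 to 6000 in WT_shCTRL. OAS1, an antiviral RNA sensor, had log2 fold changes of -1.79 ± 0.07 in the knockout and -1.52 ± 0.06 with the hairpin, both with the WT_shCTRL libraries as base. The part of this list in the SIGLEC1 result was not tested. The order of the groups was not the same. SIGLEC1 was lower in CD33KO_shCTRL than in WT_shPTPN6 (-0.80 ± 0.18, edgeR adjusted p = 4.69e-05). In that comparison 24 of the 28 genes were higher and 3 lower, against 33.1% and 31.4% of all genes.

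SIGLEC7 and SIGLEC9 are ITIM-bearing relatives of CD33, known from NK cells and from monocytes and neutrophils. SIGLEC7 had 0.914 to 2.58 CPM in CD33KO_shPTPN6, 0.450 to 1.76 in CD33KO_shCTRL, 3.01 to 5.23 in WT_shPTPN6 and 0.517 to 3.37 in WT_shCTRL. Its summed read counts were 17 in CD33KO_shPTPN6, 15 in CD33KO_shCTRL, 100 in WT_shPTPN6 and 69 in WT_shCTRL. These are levels of a few reads per library, and WT_shCTRL overlapped the other groups. SIGLEC7 was lower in CD33KO_shCTRL than in WT_shCTRL (log2 fold change -1.15 ± 0.43, edgeR adjusted p = 0.0184), but not past 0.05 without WT_shCTRL replicate 4 (edgeR adjusted p = 0.0563). It was higher in WT_shPTPN6 than in WT_shCTRL (0.74 ± 0.29, edgeR adjusted p = 0.0213). That call was lost without WT_shCTRL replicate 1, WT_shCTRL replicate 5 or WT_shPTPN6 replicate 6, with edgeR adjusted p of 0.0541, 0.107 and 0.0587.

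An antisense transcript, AC063977.6, overlaps SIGLEC7 on the other strand, and 46.7% of the 50-base words in the 3' ends of SIGLEC7 transcripts lie in it too. It had 23, 17, 12, 10 and 16 reads in CD33KO_shPTPN6 and 2 to 8 in CD33KO_shCTRL (24 in all), and was at 0 in all 12 wild-type libraries. Whether counting used strand is not stated, so reads of the 2 genes may not be separated, and the SIGLEC7 values are uncertain in the knockout.

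SIGLEC9 had 2.96, 4.57, 0.898, 1.55 and 1.64 CPM in CD33KO_shPTPN6, 0.900 to 4.58 (median 1.46) in CD33KO_shCTRL, 5.02 to 8.22 (median 6.18) in WT_shPTPN6 and 7.49 to 11.2 (median 9.33) in WT_shCTRL. Knockout libraries all lay below wild-type ones. SIGLEC9 was lower in CD33KO_shCTRL than in WT_shCTRL (log2 fold change -2.17 ± 0.27, edgeR adjusted p = 1.34e-11). It was also lower in WT_shPTPN6 than in WT_shCTRL (-0.55 ± 0.19, edgeR adjusted p = 0.00951). Within the knockout the hairpin difference was 0.18 ± 0.42 (edgeR adjusted p = 0.762), and the interaction of 0.73 ± 0.46 did not pass either (edgeR adjusted p = 0.254), so a difference between the lines was not shown.

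SIGLEC10, an ITIM-bearing receptor that binds CD24, did not pass the filter on low counts. Its summed read counts were 8 in CD33KO_shPTPN6, 12 in CD33KO_shCTRL, 75 in WT_shPTPN6 and 12 in WT_shCTRL, and 3 of the CD33KO_shCTRL libraries were at 0. In WT_shPTPN6 its level was 1.81 to 4.21 CPM, above all WT_shCTRL libraries, at 0.208 to 0.613. An edgeR fit without the filter gave a log2 fold change of 2.78 ± 0.47 between these groups, with an adjusted p of 3.28e-08. Its p-values are adjusted over its own larger set of genes, not over the 13098. That fit placed CD33KO_shPTPN6 below WT_shPTPN6 (-1.97 ± 0.55, adjusted p = 0.00234) and CD33KO_shCTRL below WT_shPTPN6 (-1.87 ± 0.49, adjusted p = 0.000746). It did not tell CD33KO_shCTRL from WT_shCTRL (0.91 ± 0.65, adjusted p = 0.339), and its interaction was -2.88 ± 0.88 (adjusted p = 0.0146). The 3' ends of SIGLEC10 share 50-base words with SIGLEC16 (85 of 1438) and SIGLEC11 (37 of 1438), so some reads may not be assignable to 1 of these genes.

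**Figure D4:**
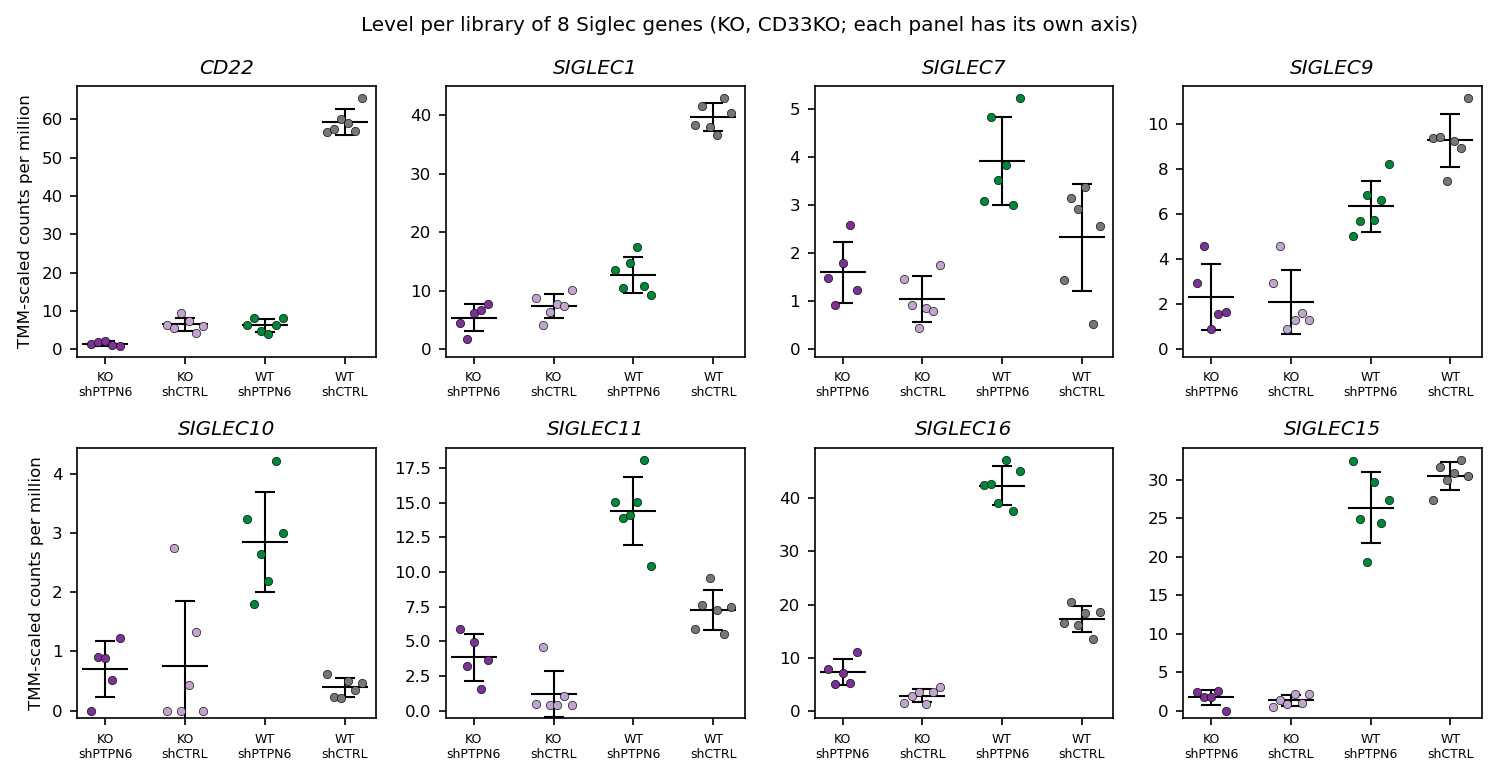
Levels per library, in TMM-scaled CPM, of the 8 Siglec genes other than CD33, with the mean ± SD per group; each panel has its own axis. CD22 and SIGLEC1 are highest in WT_shCTRL, SIGLEC11 and SIGLEC16 in WT_shPTPN6, and SIGLEC15 is at 19.4 to 32.6 in wild type and at 0 to 2.58 in the knockout.

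SIGLEC11 and SIGLEC16 are known as paired receptors with near-identical outer parts, in which SIGLEC11 carries the inhibitory tail and SIGLEC16 the activating form that couples to DAP12. They lie 8.5 kb apart on chromosome 19, and GENCODE 29 annotates SIGLEC16 as a transcribed pseudogene, since many human genomes carry a disrupted allele. Despite the shared promoter stretch printed above, their 3' ends held no 50-base word in common, so reads at the 3' end can be assigned between them, although 26.4% of SIGLEC11's words occur in repeats or other genes.

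SIGLEC16 rose with the hairpin in both lines. It stood at 7.90, 5.03, 7.18, 5.15 and 11.0 CPM in CD33KO_shPTPN6, at 1.28 to 4.40 (median 3.10) in CD33KO_shCTRL, at 37.6 to 47.2 (median 42.6) in WT_shPTPN6 and at 13.4 to 20.5 (median 17.4) in WT_shCTRL. No 2 groups overlapped. The hairpin raised it by log2 1.34 ± 0.28 in the knockout (edgeR adjusted p = 3e-05) and by 1.30 ± 0.11 in wild type (edgeR adjusted p = 1.04e-20). The difference between these effects was 0.04 ± 0.25 (edgeR adjusted p = 0.935). It was lower in the knockout by -2.52 ± 0.16 with the hairpin and by -2.56 ± 0.20 with the empty vector on the log2 scale (edgeR adjusted p of 8.53e-28 and 8.21e-22).

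SIGLEC11 followed the same directions at a lower count. Its levels were 5.93, 3.20, 4.94, 1.55 and 3.68 CPM in CD33KO_shPTPN6, 0.428 to 4.58 (median 0.469) in CD33KO_shCTRL, 10.5 to 18.0 (median 14.6) in WT_shPTPN6 and 5.52 to 9.57 (median 7.35) in WT_shCTRL. All CD33KO_shCTRL libraries but replicate 2, at 4.58, lay at or below 1.06. SIGLEC11 was higher with the hairpin in the knockout (log2 fold change 1.65 ± 0.42, edgeR adjusted p = 0.000846) and in wild type (1.00 ± 0.17, edgeR adjusted p = 3.89e-07). Without that library the knockout effect was 2.55 and the interaction passed, at 1.54 with an edgeR adjusted p of 0.0181, against 0.65 ± 0.46 and 0.315 with it. Likewise the lower level in CD33KO_shCTRL than in WT_shCTRL was -2.53 ± 0.32 (edgeR adjusted p = 3.53e-11) with that library and -3.45 without it, and CD33KO_shCTRL against WT_shPTPN6 was -3.53 with it and -4.46 without.

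SIGLEC15, a conserved Siglec that pairs with DAP12 and is known from osteoclasts and macrophages, separated the lines most among the members. It had 2.47, 1.83, 1.80, 2.58 and 0 CPM in CD33KO_shPTPN6, 0.489 to 2.20 (median 1.22) in CD33KO_shCTRL, 19.4 to 32.5 (median 26.2) in WT_shPTPN6 and 27.4 to 32.6 (median 30.7) in WT_shCTRL. Its summed read counts were 18 in CD33KO_shPTPN6, 20 in CD33KO_shCTRL, 694 in WT_shPTPN6 and 923 in WT_shCTRL. Its log2 fold change was -3.96 ± 0.25 with the hairpin (edgeR adjusted p = 1.27e-28) and -4.46 ± 0.22 with the empty vector (edgeR adjusted p = 2.83e-36). The hairpin difference in wild type was -0.21 ± 0.11 and did not pass (edgeR adjusted p = 0.0879), but it did with library totals in place of TMM scaling (-0.29, 0.0158) and without WT_shPTPN6 replicate 1 (-0.28, 0.0325).

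Of 10 osteoclast genes tested, 5 were higher and 3 lower in CD33KO_shCTRL than in WT_shCTRL, where 56.7% of all genes were called, and 6 were higher and 3 lower in WT_shPTPN6 than in WT_shCTRL, where 60.6% were. All 11 listed osteoclast genes summed to 1787 to 1996 CPM in CD33KO_shPTPN6, 1071 to 1140 in CD33KO_shCTRL, 1844 to 2160 in WT_shPTPN6 and 479.4 to 580.8 in WT_shCTRL. Most of each sum was 1 gene, MMP9, which averaged 1728, 942.9, 1874 and 386.7 CPM in the same order. The sum therefore does not describe the other genes of the list. DCSTAMP, needed for the fusion of osteoclasts, was higher in the knockout (log2 1.90 ± 0.14) and with the hairpin (2.80 ± 0.12), each against WT_shCTRL. NFATC1, a transcription factor of osteoclast formation, and OSCAR, an osteoclast receptor, were lower in the knockout (-0.54 ± 0.08 and -0.99 ± 0.22). The part of these genes in the SIGLEC15 result was not tested.

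The 4 group means of each Siglec gene averaging at least 5 CPM were set against those of other genes after centring on the log2 scale, to find the genes of most similar pattern. This left out SIGLEC7 and SIGLEC10, describes 4 points and carries no test. Among 10704 genes searched, PKIB was nearest to CD33 with a root mean square difference of 0.10, followed by NHLRC3 (0.118), QPRT (0.121), HACD4 (0.126) and MMAB (0.126). PKIB, which encodes an inhibitor of protein kinase A, averaged 27.7 ± 4.69 CPM in CD33KO_shPTPN6, 26.1 ± 3.97 in CD33KO_shCTRL, 94.4 ± 4.57 in WT_shPTPN6 and 50.7 ± 3.58 in WT_shCTRL (SD, n = 5 in the first group and 6 in the others). The nearest genes were PENK (0.212) and ABLIM3 (0.29) for CD22, ITM2C (0.06) and SCUBE1 (0.10) for SIGLEC1, and CAPG (0.091) and MAP3K5-AS2 (0.116) for SIGLEC9. They were SLFN12 (0.132) and PYROXD2 (0.152) for SIGLEC15, CD180 (0.092) and LINC01094 (0.117) for SIGLEC11, and FRMD4A (0.091) and LINC01094 (0.16) for SIGLEC16. LINC01094 is thus on the lists of both paired receptors.

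Of the 9 genes, 7 lie on chromosome 19, while SIGLEC15 is on chromosome 18 and SIGLEC1 on chromosome 20. CD33 itself is at chr19:51225064-51243860 (GRCh38, plus strand), 71.5 kb after SIGLEC7 and 166.2 kb before SIGLEC10. Of the 3 nearest tested genes on each side that GENCODE 29 annotates as protein-coding, Siglec genes left out, those after it were higher in CD33KO_shCTRL than in WT_shCTRL, and of those before it 1 was lower and 2 did not pass. Of all genes, 28.3% were higher and 28.4% lower in this comparison. VSIG10L, 87.7 kb after it, and CLDND2, 123.2 kb after it, stood at 7.10 ± 1.30 against 1.71 ± 0.56 CPM and 2.63 ± 1.63 against 0.499 ± 0.168 CPM in these groups (SD, n = 6 each; log2 2.02 ± 0.29 and 2.27 ± 0.49, edgeR adjusted p of 2.77e-09 and 3.83e-05). ETFB, 101.3 kb after it, was higher by 0.58 ± 0.06, and KLK1, 401.3 kb before it, was lower (-1.01 ± 0.33, edgeR adjusted p = 0.00571). CTU1 and C19orf48P, before CD33, did not pass (edgeR adjusted p of 0.93 and 0.285). In CD33KO_shPTPN6 over WT_shPTPN6, VSIG10L and CLDND2 were higher again (log2 2.92 ± 0.32 and 2.025 ± 0.469). There ETFB (-0.06 ± 0.07) and KLK1 (-0.11 ± 0.36) did not pass (edgeR adjusted p of 0.476 and 0.821), nor did CTU1 or C19orf48P. SIGLECL1, 2.5 kb after CD33, was below the filter, with summed read counts of 22 in CD33KO_shPTPN6, 32 in CD33KO_shCTRL, 11 in WT_shPTPN6 and 3 in WT_shCTRL.

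Beyond the 9, the table held 15 of 16 further Siglec genes and pseudogenes looked for, and 2 passed the filter. SIGLEC14, an activating DAP12-coupled receptor, was lower in CD33KO_shCTRL than in WT_shCTRL, at 0.415 ± 0.501 against 3.24 ± 1.35 CPM (SD, n = 6 each; log2 -2.69 ± 0.50, edgeR adjusted p = 1.8e-06). SIGLEC17P, a pseudogene 51.5 kb before CD33, did not share that direction. It averaged 21.2 ± 2.95 CPM in CD33KO_shPTPN6, 7.85 ± 2.35 in CD33KO_shCTRL, 17.3 ± 2.47 in WT_shPTPN6 and 5.94 ± 1.249 in WT_shCTRL (SD, n = 5 in the first group and 6 in the others), and groups with and without the hairpin did not overlap. The hairpin raised it by log2 1.40 ± 0.19 in the knockout and 1.55 ± 0.15 in wild type (edgeR adjusted p of 3.04e-10 and 3.03e-16), while CD33KO_shCTRL against WT_shCTRL gave 0.42 ± 0.20 (edgeR adjusted p = 0.0569).

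Of 17 tested adaptors, kinases and phosphatases of Siglec signalling, 5 were higher and 10 lower in CD33KO_shCTRL than in WT_shCTRL, where 28.3% of all genes were higher and 28.4% lower, with a median log2 fold change of -0.23 against -0.005 over all genes. TYROBP averaged 346.5 ± 23.5 CPM in CD33KO_shCTRL against 964.2 ± 77.0 CPM in WT_shCTRL (SD, n = 6 each; log2 -1.48 ± 0.05, edgeR adjusted p = 2.19e-51), and INPP5D, the phosphatase SHIP-1, was lower (log2 -0.99 ± 0.05). The kinases FGR and SRC were higher by log2 2.31 ± 0.08 and 2.33 ± 0.12. In WT_shPTPN6 against WT_shCTRL, 6 were higher and 8 lower, against 30.2% and 30.4% of all genes, with a median of -0.10, and PTPN6 itself was among the lower. The kinase LYN was higher (0.95 ± 0.05) and HCST, the adaptor DAP10, was lower (-1.12 ± 0.07). PTPN11, which encodes the related phosphatase SHP-2, gave -0.10 ± 0.08 with the hairpin and did not pass (edgeR adjusted p = 0.294).

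The genes that make, carry or remove the sialic acid ligands are given as counts to be read against the 56.7% of all genes called in CD33KO_shCTRL over WT_shCTRL and the 60.6% called in WT_shPTPN6 over WT_shCTRL, each divided about evenly by direction. Of 7 tested genes in a list for sialic acid synthesis and activation, 2 were higher and 3 lower in CD33KO_shCTRL than in WT_shCTRL. In WT_shPTPN6 against WT_shCTRL, 5 were higher and 0 lower. The list also holds NPL and SLC17A5, which are not genes of synthesis or activation. They were the 2 higher in the knockout, and both were among the 5 higher with the hairpin. NPL, which cleaves sialic acid, averaged 170.4 ± 18.4 CPM in CD33KO_shCTRL and 35.5 ± 1.75 in WT_shCTRL (SD, n = 6 each; log2 2.26 ± 0.07, edgeR adjusted p = 5.65e-54). CMAS, which activates sialic acid for transfer, was lower in the knockout (-0.78 ± 0.09) and higher with the hairpin (0.40 ± 0.07). Of 11 sialyltransferases tested, 4 were higher and 5 lower in the knockout, and 6 higher and 4 lower with the hairpin. ST6GALNAC3 was at 11.5 ± 1.18 CPM in CD33KO_shCTRL against 0.400 ± 0.436 CPM in WT_shCTRL (SD, n = 6 each; log2 4.72 ± 0.34). ST3GAL6 was higher with the hairpin in wild type (2.27 ± 0.11) and ST6GAL1, which makes the ligand bound by CD22, was lower in the knockout (-0.65 ± 0.09) and with the hairpin (-1.28 ± 0.09).

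Of 5 tested genes in a list for neuraminidases and sialate esterase, 2 were higher and 2 lower in the knockout, and 3 higher and 2 lower with the hairpin. The list also holds CTSA and CASD1, which are neither. NEU1, the lysosomal sialidase, was higher in both comparisons (log2 0.79 ± 0.06 and 0.71 ± 0.05). Of 12 tested carriers of Siglec ligands, 1 was higher and 9 lower in the knockout, and 3 higher and 8 lower with the hairpin. SPN, the mucin-like protein CD43, averaged 236.3 ± 12.7 CPM in CD33KO_shCTRL, 265.2 ± 11.3 in WT_shPTPN6 and 449.3 ± 24.2 in WT_shCTRL (SD, n = 6 each). TREM2, a lipid-sensing receptor that signals through DAP12, was at 211.0 ± 12.3, 392.5 ± 13.9 and 608.1 ± 41.2 CPM in the same groups.

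Macrophage markers were present in all groups, though not evenly. Of 14, none was at 0 in any group, and their summed level was 2639 to 2885 CPM in CD33KO_shPTPN6, 1203 to 1433 in CD33KO_shCTRL, 3554 to 3723 in WT_shPTPN6 and 1768 to 2099 in WT_shCTRL. Of 12 tested, 2 were higher and 8 lower in CD33KO_shCTRL than in WT_shCTRL, against 28.3% and 28.4% of all genes. In WT_shPTPN6 against WT_shCTRL, 11 were higher and 1 lower, against 30.2% and 30.4% of all genes. CD14 was higher in both (log2 1.12 ± 0.05 and 1.63 ± 0.05), while CSF1R, the receptor for CSF-1, was lower in the knockout (-1.08 ± 0.05) and higher with the hairpin (1.19 ± 0.05). SPI1 averaged 133.7 ± 8.91 CPM in CD33KO_shPTPN6, 56.9 ± 4.75 in CD33KO_shCTRL, 151.8 ± 9.89 in WT_shPTPN6 and 64.1 ± 7.72 in WT_shCTRL (SD, n = 5 in the first group and 6 in the others). The part of these markers in the Siglec results was not tested.

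T and NK cell markers summed to 3.74 to 13.9 CPM over all libraries and granulocyte markers to 3.19 to 20.5. Of the granulocyte list, CLC and EPX were at 0 in every group, and the 2 tested, CXCR2 and CSF3R, were lower in CD33KO_shCTRL than in WT_shCTRL (log2 -3.13 ± 0.46 and -1.47 ± 0.25). Of 2 tested T and NK markers, none passed there, and PRF1 was lower with the hairpin in wild type. Epithelial and HEK markers summed to 90.4 to 112.9 CPM in CD33KO_shPTPN6, 104.0 to 139.0 in CD33KO_shCTRL, 63.5 to 103.8 in WT_shPTPN6 and 45.9 to 65.0 in WT_shCTRL. Of the 3 tested, CDH1 and CDH2 were higher and INA lower in CD33KO_shCTRL than in WT_shCTRL, while EPCAM and KRT19 had at most 6 reads in any group. Of all genes, 28.3% were higher and 28.4% lower in CD33KO_shCTRL than in WT_shCTRL, and 30.4% were lower with the hairpin in wild type. The part of these marker genes in the Siglec results was not tested.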

How the data were processed

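RNA of PMA-differentiated THP1 macrophages was read at transcript 3' ends with a QuantSeq kit, per the labels' protocols. The authors deposited raw counts of reads for each gene in each library, unnormalized. Among the tools in the submitters' processing notes are bcl2fastq, STAR 2.7.3a, the Subread 2.0.0 counter featureCounts, hg38, R 3.6.1 and DESeq2 1.26.0, with no roles. Strand setting and annotation release are not given in the sources used here, and without strand a gene and its antisense partner cannot be told apart in the counts. Of 60617 gene IDs, 60261 (99.41%) matched a symbol, and positions come from GENCODE 29 on GRCh38. The analysis used 23 of 24 libraries, without CD33KO_shPTPN6 replicate 2, which was not analysed here. No 2 libraries of a group agreed within sampling noise, since the chi-square per gene was 1.52 to 4.07 over replicate pairs.

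In R 4.3.3, edgeR 4.0.16 kept 13098 genes (filterByExpr by group), scaled libraries by TMM and fitted 1 quasi-likelihood model to the 4 groups (robust glmQLFit). The 6 pairwise contrasts and the interaction were tested with glmQLFTest, and p-values were adjusted by Benjamini-Hochberg over all 13098 genes at 0.05. CPM are TMM-scaled. SEs are approximate, obtained by dividing each log2 fold change by the root of F. In data simulated at the depth of CD33KO_shCTRL and WT_shCTRL, with 12383 genes tested, the fit called 24 of 50 genes changed 1.25-fold, 41 of 50 changed 1.5-fold, 49 of 50 changed 2-fold and all 50 changed 4-fold, with 6 unchanged genes called. The changed genes were drawn only from those above a minimum mean CPM in WT_shCTRL, which SIGLEC7 and SIGLEC14 did not reach. These rates do not cover such low levels. CD33 was also compared on log2 CPM by exact two-sided permutation (prior count 2). Alternatives were DESeq2 1.42.0, other scalings, no filter, only the compared groups, the replicate number as a block, and each library left out in turn. In each of them p-values were adjusted over the genes of that fit.

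The members, gene lists and tests were chosen with earlier results of these data known. All 9 listed Siglec genes are named, with up to 2 called genes per direction from each list in CD33KO_shCTRL against WT_shCTRL and in WT_shPTPN6 against WT_shCTRL, by smallest adjusted p. Some of these genes are given for 1 of these comparisons only, left out for length or not reported here. The genes nearest CD33 were chosen by position. The values of AC063977.6, HCST, PTPN11 and SPI1, and those of SIGLECL1 and single markers of other cell types, were added after they were seen. The labels do not say whether replicates are separate cultures, so the p-values measure only the spread between these libraries, which may be technical.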

Additional observations from a re-analysis of the deposited data

Results flagged for a closer look

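SIGLEC11 in CD33KO_shCTRL replicate 2 stood apart, at 4.58 CPM against 0.428 to 1.06 CPM in the other 5 libraries of that group. The gap was 0.847 of the group's range, past the limit for a group of 6. Among 36 groups of Siglec values examined in this way this was the 1 set apart, and chance sets apart about 1 group in 20.

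The effect of the PTPN6 hairpin differed between the knockout and wild type for 3 of 8 genes by the edgeR interaction test, which 28.4% of all genes passed. On the log2 scale the knockout effect less the wild-type effect was -0.75 for CD33 (adjusted p = 3.32e-05), 1.17 for SIGLEC1 (adjusted p = 0.000789) and 1.18 for CD22 (adjusted p = 0.041). The CD22 call was lost with no filter on low counts (adjusted p = 0.114) and without any of 8 libraries in turn (adjusted p up to 0.177).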

How the results depend on the processing

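The counts of Siglec genes and of all genes past the threshold stayed within 1.5 times in the 7 contrasts under each alternative, with leave-one-out ranges of 7 to 8, 6 to 8, 7, 3 to 4, 8, 7 and 2 to 3 Siglec genes. In the same order (CD33KO_shCTRL, WT_shPTPN6 and CD33KO_shPTPN6 over WT_shCTRL, CD33KO_shPTPN6 over CD33KO_shCTRL, CD33KO_shPTPN6 and CD33KO_shCTRL over WT_shPTPN6, and the interaction), the replicate number as a block gave 8, 7, 7, 3, 8, 7 and 3 genes. Same-numbered libraries did not deviate together (correlations of -0.049 to 0.032, and 3 of 23 libraries correlated best with their own number), so the numbers do not pair them, and the block changed no Siglec call. Of the values of single Siglec genes, 13 lost their call, 4 gained it and 14 changed sign, the last all for differences that did not pass, and the cause was not tested. CD22 in CD33KO_shCTRL over WT_shPTPN6 became -0.059 with no filter and -0.11 to 0.14 with a library left out. Other log2 ranges that crossed 0 with a library left out were -0.22 to 0.53 for SIGLEC9 in CD33KO_shPTPN6 over CD33KO_shCTRL, and -0.34 to 0.091 for SIGLEC7 and -0.18 to 0.17 for SIGLEC16 in the interaction. SIGLEC7, SIGLEC10 and SIGLEC15 rest on at most 5, 6 and 5 reads in any knockout library, and SIGLEC9 and SIGLEC11 on at most 10 and 12. CD22 rests on at most 5 reads in any CD33KO_shPTPN6 library. Such counts limit the precision of these values in the knockout.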
